A study of Mus musculus with 20 samples.

Results

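Gpr151 encodes an orphan G protein-coupled receptor of the mouse habenula, and its transcript was followed here across 8 stages of habenula development and between the left and right sides at E18. It is 1 of the 37994 genes in the tables of the developmental series and 1 of the 36104 genes in those of the left and right plates, and it was found by its symbol in the total, spliced and unspliced tables of both. The gene (ENSMUSG00000042816) lies on the minus strand of chromosome 18 from 42577881 to 42579652 in GENCODE release M21 (GRCm38). It is annotated with 1 exon of 1772 bases, of which 1266 are coding, between untranslated stretches of 41 and 465 bases. No annotated gene overlaps it.

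The habenula is a paired epithalamic nucleus with a medial and a lateral division, and it sends its axons through the fasciculus retroflexus to the interpeduncular nucleus and other targets in the midbrain and hindbrain. Gpr151 is related in sequence to the galanin receptors, has no agreed ligand, and is known as a marker of habenular neurons whose protein travels into their axons and presynaptic terminals. In presynaptic terminals the receptor has been linked to the inhibitory G protein subunit encoded by Gnao1, to cyclic AMP and to the release of synaptic vesicles.

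Cells were sequenced with Cel-seq2, a plate chemistry that reads the 3′ end of each transcript with a unique molecular identifier (UMI), on 20 plates of 384 wells. The developmental series had 15 plates from the Brn3a-tauLacZ line, in which a reporter sits at the gene now called Pou4f1, and it sampled each of 8 stages from E11 to the adult with 2 plates, except E12 with 1 (E11, E12, E13, E15, E18, P4, P7, adult). The other set, of 5 plates, used C57BL/6 mice at E18: the left habenula filled 2 plates, the right habenula 2 more, and 1 plate took both sides together. The plate was the replicate; whether plates came from separate animals, the gate of any sort, the sex and the genotype at the reporter are not stated in the labels, so p-values measure only the spread between plates, which may be technical. Wells counted as cells if they held 1000 or more UMIs and 500 or more genes, with no more than 20% of UMIs mitochondrial; 3729 of 5756 wells passed in the series and 1082 of 1920 in the C57BL/6 set.

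A level is the Gpr151 count per 1000000 counts in the kept cells of a plate (CPM), and a positive cell is a kept cell with at least 1 Gpr151 UMI. Depth and cell mixture differed between plates of 1 stage. Adult plate 1 was the shallowest, at 758697 total counts, and P7 plate 1 the deepest, at 7760370. Neuron-like cells made up 0% of the kept cells on E13 plate 2, 0.375% on E18 plate 1 and 10.6% on E15 plate 1, against 92.7% and 92.9% on the P4 plates. Adult plate 1 had 56 kept cells, from 14.6% of its wells, and left plate 2 had 54. On a whole plate, fewer Gpr151-expressing cells and less Gpr151 RNA per cell cannot be told apart.

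Gpr151 was at or near 0 through E12, was low and uneven from E13 to E18, and was high on every plate from P4 on. On the E11 plates it was at 0 and 0.204 CPM, from 1 UMI in all, and 3 counts on plate 1 would have given 0.579 CPM. The E12 plate held 2 UMIs, both in 1 cell, or 0.421 CPM. The E13 plates stood at 7.39 and 4.25 CPM, the first from 6 positive cells of 153 and the other from a single cell with 8 UMIs.

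Both E15 and E18 had 1 plate almost without the transcript. E15 plate 1 gave 0 of 188 cells, at a median of 9280 counts per cell, which by 3 counts allows a share of cells with a UMI of up to 1.60%, and E15 plate 2 gave 60 positive cells of 302 and 43.4 CPM (95% exact Poisson interval 36.6 to 51.0). E18 plate 1 held 1 UMI, or 0.399 CPM, and E18 plate 2 held 8 UMIs in 6 cells, or 6.03 CPM. The low plates had few neuron-like cells at the clustering used: 20 on E15 plate 1 and 1 on E18 plate 1, against 231 and 86 on the other plate of each stage. At the coarser clustering resolution of 0.5 this held for E18 plate 1, with 2 such cells against 63, and not for E15 plate 1. There 158 neuron-like cells gave 0 counts, where 3 would have given 1.89 CPM, against 43.8 CPM in 294 such cells of plate 2, and the 152 cells of E15 plate 1 with a Pou4f1 UMI were also at 0. The part of that mixture in the stage levels was not tested.

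After birth the transcript was abundant on all 6 plates. The P4 plates stood at 161.5 and 132.7 CPM and the P7 plates at 290.1 and 322.4 CPM. Adult plates 1 and 2 stood at 252.4 and 780.8 CPM. Every P7 plate lay above every P4 plate, and every P4 plate lay above every plate of E18 or earlier. The 2 adult plates lay below and above both P7 plates. By mean the stages ranked adult (517 ± 374 CPM, SD, n = 2), P7 (306 ± 22.9), P4 (147 ± 20.4), E15 (21.7 ± 30.7), E13 (5.82 ± 2.22), E18 (3.21 ± 3.98), E12 (0.421 on 1 plate) and E11 (0.102 ± 0.144). The plates of the adult and P7 overlapped. Before birth the range of the E15 plates took in every plate of E11, E12, E13 and E18, so E15 did not differ from any of them beyond its spread. The E18 plates overlapped with E13 and took in E12. The E11 and E12 plates lay below both E13 plates, and the E11 plates below both E18 plates.

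**Figure D1:**
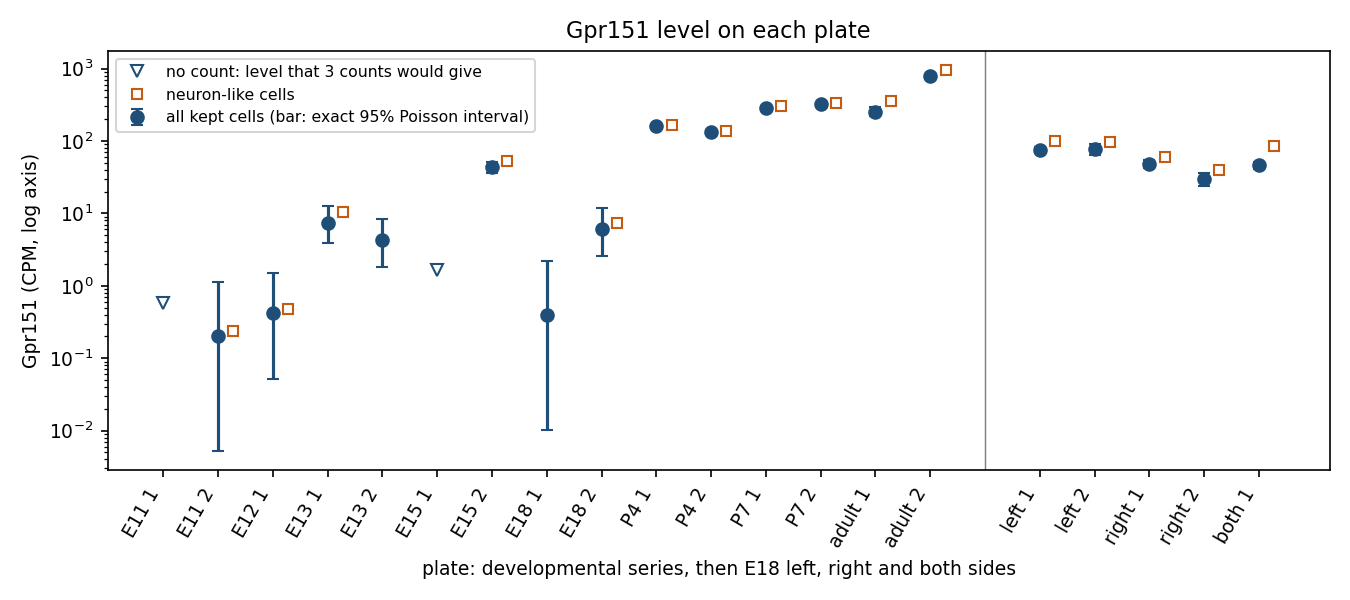
Gpr151 level (CPM, log axis) on each of the 20 plates, in all kept cells (points with exact 95% Poisson intervals) and in neuron-like cells (open squares); triangles mark plates with no count at the level that 3 counts would give. The P4, P7 and adult plates sit between 132.7 and 780.8 CPM in all kept cells, and the left, right and both plates at E18 sit between 29.7 and 76.5 CPM.

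Of the 8 steps tested across the series, the 3 that passed all spanned birth. The step from E18 to P4 raised Gpr151 by 6.06 ± 1.37 on the log2 scale (± SE; edgeR's quasi-likelihood test, Benjamini-Hochberg adjusted p = 0.0131 over 17453 genes), in a comparison in which 9.2% of genes were called higher. From E11 to P7 it rose by 11.23 ± 1.82 (edgeR adjusted p = 0.000975), where 15.4% of genes were called higher, and from E18 to the adult by 7.76 ± 1.41 (edgeR adjusted p = 0.0034), where 9.64% were. Fitted on its 4 plates alone the last of these did not pass (7.59, edgeR adjusted p = 0.067). With neuron-like cells only, a fit that has no E13 plate 2 and no E18 plate 1 because each held under 5 such cells, so that E18 is 1 plate assumed to vary like those of the other stages, the rise from E18 to P4 was 4.47 ± 0.85 (edgeR adjusted p = 0.00221). The call from E18 to P4 was lost without E18 plate 1 (edgeR adjusted p = 0.0714), without P4 plate 1 (0.0535) and without P4 plate 2 (0.0576). With 1 plate left out, the lone plate of a stage is likewise assumed to vary like the others.

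The other steps did not pass in the fit of all stages. The log2 difference from E11 to E13 was 5.32 ± 2.5 (edgeR adjusted p = 0.264; 1.45% of genes called in either direction), and from E13 to E15 it was 2.15 ± 1.23 (0.517; 0.0917%). From E15 to E18 it was -3.34 ± 1.43 (edgeR adjusted p = 0.266; 0.195% of genes called). Without E15 plate 2 the E15 group had 0 counts and both of these steps turned in sign, so the E15 level rested on that plate. From P4 to P7 the difference was 1.04 ± 0.92 (edgeR adjusted p = 1.0), although the plates did not overlap, in a step in which 0.00573% of genes were called. Fitted on those 4 plates alone it passed (1.05 ± 0.11, edgeR adjusted p = 0.00238). From P7 to the adult it was 0.65 ± 0.91 (edgeR adjusted p = 0.733; 3.58% of genes called), and without adult plate 2 it was -0.32.

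A larger share of cells was positive on the P4, P7 and adult plates than on any earlier plate, of which left plate 2 was the highest at 29.6%. The share of positive cells was 51.6% and 50.9% on the P4 plates, 66.0% and 65.3% on the P7 plates, and 42.9% and 59.1% on the adult plates. On E15 plate 2 it was 19.9% (exact Clopper-Pearson 95% interval 15.5 to 24.8). The median positive cell held 3.5 and 3 UMIs on the P4 plates, 5 on both P7 plates, and 4.5 and 15.5 on the adult plates, with a maximum of 82 UMIs in 1 cell of adult plate 2. These medians are not corrected for depth, and before birth they reached 8, in the 1 positive cell of E13 plate 2, and 4 on left plate 1. Within positive cells the level was 273.7 and 228 CPM on the P4 plates, 413 and 439 CPM on the P7 plates and 349.6 and 961 CPM on the adult plates. On earlier plates with positive cells it ran from 61.3 to 272 CPM, so that the P4 plates overlapped with these and the P7 and adult plates did not. Since depth sets how often a UMI is seen, the share was also computed for 2000 UMIs per cell: on the P4 plates it was then 20.7% and 18.3%, on the P7 plates 31.7% and 35.4%, and on the adult plates 28.3% and 43.2%, where 16 and 15 shallower cells were left out. Stages ranked the same way by this share as by level from P4 on, with the adult plates again on either side of P7.

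**Figure D2:**
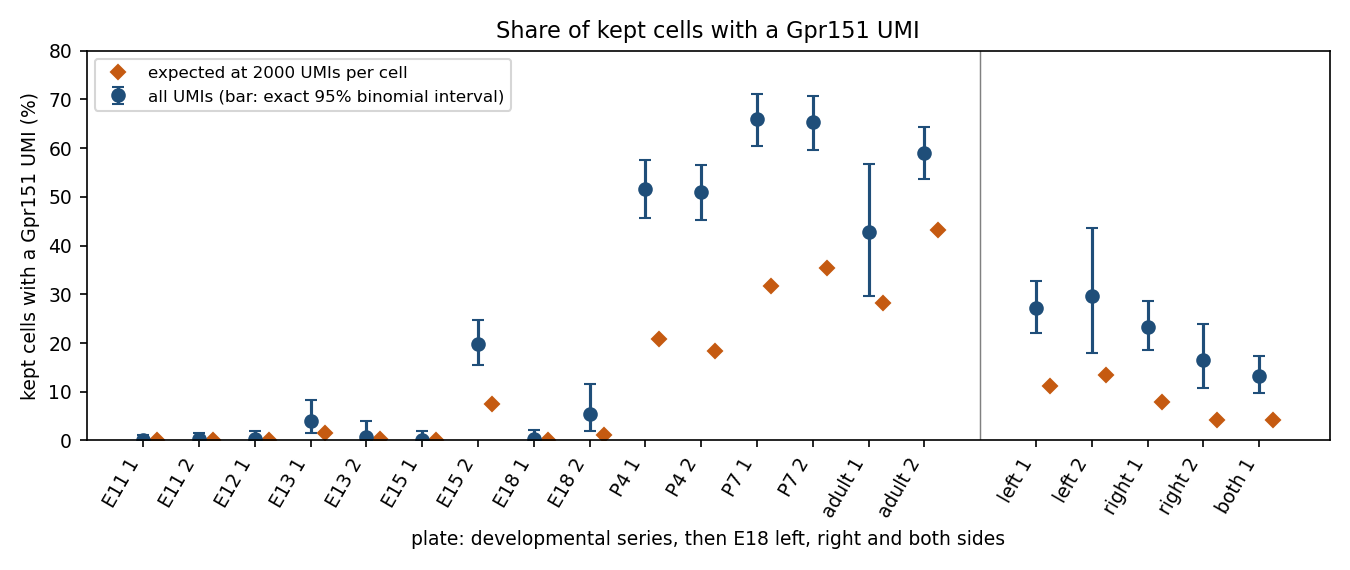
Share of kept cells with a Gpr151 UMI (%) on each plate, counted at full depth (points with exact 95% binomial intervals) and for 2000 UMIs per cell (diamonds). At full depth the P7 plates are at 66.0% and 65.3%, the left plates at 27.2% and 29.6% and the right plates at 23.3% and 16.5%.

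The Gpr151 UMIs were spread unevenly over cells, with cells at 0 included. After each neuron-like cell was thinned to 5000 UMIs, P7 plate 1 had 142 cells with 0 Gpr151 UMIs, 44 with 1, 58 with 2 to 4, 38 with 5 to 9 and 2 with 10 or more, a mean of 1.64 and a variance of 5.64. On adult plate 2, 29 cells had 0, 14 had 1, 39 had 2 to 4, 66 had 5 to 9 and 25 had 10 or more. The tenth of all kept cells with most Gpr151 held 47.2% and 48.8% of a plate's Gpr151 UMIs at P7, 71.2% and 43.6% in the adult, and 75.0% to 96.7% on the E18 left, right and both plates.

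Nonneuronal cells were taken as the reference for background. Whether their Gpr151 UMIs were background or low expression was not tested. On adult plate 2, 138 cells of nonneuronal clusters (glia, vessels, microglia and ependyma) gave 42.0 CPM and 21.0% positive cells at a median of 5174 counts per cell, while the 180 neuron-like cells gave 961.9 CPM and 93.9% at 22176 counts. At 2000 UMIs per cell those shares were 8.64% and 72.4%. Intermediate progenitor-like cells were not counted as nonneuronal and are no part of that background. On E15 plate 2, 0 of 64 such cells, all in cluster 7, were positive, which by 3 counts allows up to 4.69%. There 25.5% of 231 neuron-like cells were positive, and the medians were 7751 and 8770 counts. At resolution 0.5, 290 of the 302 cells of that plate fell in 1 neuron-like cluster. On E13 plate 2 cluster 7 held 100% of the Gpr151 counts, from 1 cell. Shares near those of the nonneuronal cells of the same plate were read as background. On P7 plate 1, 27 nonneuronal cells gave 24.6 CPM and 25.9% positive cells, or 7.64% at 2000 UMIs. Each right plate held only 3 nonneuronal cells, with 0 counts, so no such reading was possible there. After birth the neuron-like cells lay far above the nonneuronal cells. They stood at 168.8 and 137.3 CPM on the P4 plates, 307 and 332.3 CPM on the P7 plates and 360.2 and 961.9 CPM on the adult plates.

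All Gpr151 transcripts were in the spliced table. Of 11430 Gpr151 UMIs in kept cells (10170 of them from the series and 1260 from the C57BL/6 set) 0 were unspliced, and on adult plate 2, the deepest for this gene, the exact upper limit was 0.0943%. Over all genes 17.7% to 29.2% of UMIs per plate were unspliced. The gene has 1 exon, so it has no intron in which an unspliced read could fall.

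Neuron-like cells differed widely in Gpr151. Clusters were built without Gpr151 among the genes, separately for the series and for the left and right plates, and are named by markers; none of the genes used to build them is tested between clusters. In the series, cluster 19, of 236 cells mostly from P4 and P7 plates and led by Col25a1, Thsd7b and the mu opioid receptor gene Oprm1, held 777.4 CPM of Gpr151 with 96.6% positive cells. Cluster 17, a medial habenula-like cluster of 479 cells, held 66.8 CPM with 41.3% positive cells, and cluster 21, also medial habenula-like and mostly from P7, held 249.3 CPM with 80.6%. Clusters 18 and 16 lay between, at 123.4 and 141.4 CPM.

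Among clusters of at least 5 cells on a plate, cluster 19 was the highest on each separate P4 and P7 plate. It stood at 641.4 and 539.1 CPM on the P4 plates and at 863.4 and 861.9 CPM on the P7 plates, while cluster 17 stood at 92.9 and 65.0 CPM at P4 and at 38.6 and 37.9 CPM at P7. The plates of P7 were thus above those of P4 in cluster 19 and below them in cluster 17. Medial habenula-like cells of P7 were split between clusters, however. Cluster 21, at 249.3 CPM over all its cells, held 68 and 52 cells of the P7 plates and 2 of P4 plate 1. The fall in cluster 17 is therefore no measure of medial habenula-like cells as a whole. Cluster 19 held 15.3% and 11.8% of the kept cells of the P4 plates and 53.2% and 38.1% of their Gpr151 counts. At P7 it held 22.7% and 26.2% of the cells and 59.4% and 60.7% of the counts.

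In the adult nearly all Gpr151 came from 1 cluster. Cluster 20, of 198 cells, 174 of them from adult plate 2 and 19 from adult plate 1, passed for both medial and lateral habenula markers and held 914 CPM with 91.9% positive cells. It gave 391.9 CPM on adult plate 1 and 972.8 CPM on adult plate 2, and 90.6% and 98.6% of those plates' Gpr151 counts. Its leading genes were Hspa1b and Hspa1a, which encode heat shock proteins induced during cell dissociation, and the serotonin receptor gene Htr2c. Their part in the adult level was not tested. Since the cluster is almost wholly from the adult, stage and cluster cannot be told apart in it. At E15 and E18 of the series, the transcript came mostly from cluster 8, with 52.4 CPM on E15 plate 2 and 7.5 CPM on E18 plate 2.

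**Figure D3:**
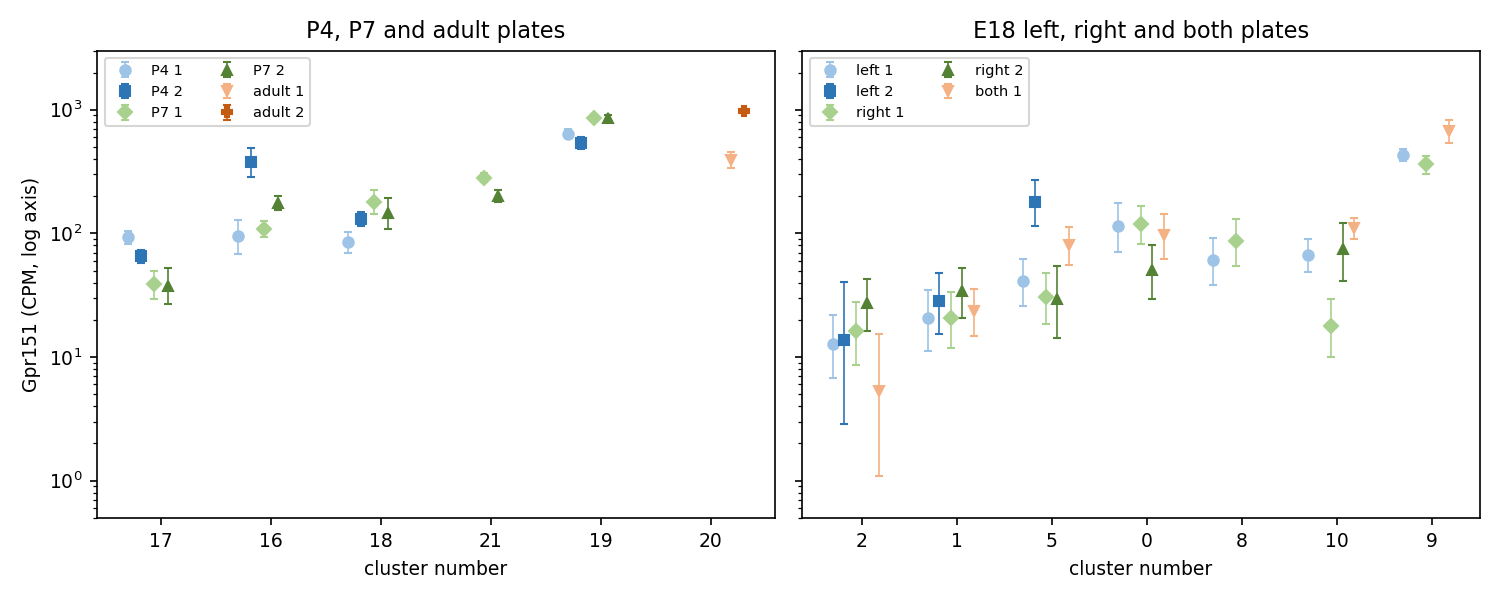
Gpr151 level (CPM, log axis, with exact 95% Poisson intervals) by cluster and plate, for clusters of at least 5 cells on a plate and with a count. Cluster 19 lies above clusters 17, 16, 18 and 21 on each P4 and P7 plate, at 539.1 to 863.4 CPM, and cluster 9 of the left and right plates lies above the others on the 3 plates where it has 5 or more cells.

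On the C57BL/6 plates at E18, Gpr151 was detected on all 5. It stood at 75.1 (68.3 to 82.5) and 76.5 (64.2 to 89.9) CPM on the left plates, at 48.5 (42.9 to 54.7) and 29.7 (24.2 to 36.0) CPM on the right plates, and at 46.3 (41.3 to 51.8) CPM on the plate of both sides. Each left plate was above each right plate, and the plate of both sides lay within the range of the right plates. At 2000 UMIs per cell its share of positive cells, 4.11%, was below that of both right plates (7.94% and 4.17%). In neuron-like cells it stood at 84.1 CPM, between the right plates (60.3 and 39.9) and the left plates (101.6 and 96.0), and in positive cells at 263 CPM, above all 4. The E18 plates of the series stood at 0.399 and 6.03 CPM, but mouse line, table and cell mixture differ between the sets and cannot be told apart.

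The left plates averaged 75.8 ± 0.999 CPM (SD, n = 2) and the right plates 39.1 ± 13.3, a ratio of left to right of 1.94. The same order held for the share of positive cells at 2000 UMIs, at 12.3% ± 1.69 on the left and 6.06% ± 2.66 on the right. It also held for neuron-like cells as named at clustering resolution 1, at 98.8 ± 3.96 and 50.1 ± 14.4 CPM. The exact permutation test, two-sided, gave p = 0.333, the smallest that 2 against 2 plates allow. In edgeR's quasi-likelihood test the log2 difference of right minus left was -0.96 ± 0.25, with an unadjusted p of 0.00275 and an adjusted p of 1.0 over 15489 genes. That test called 0 genes, or 0% of those tested, while 182 genes (1.18%) had an unadjusted p under 0.05 and DESeq2 called 1. The difference in Gpr151 therefore did not pass, in a test that recovered 12% of 2-fold changes in simulated counts of an assumed spread. Without right plate 1 it was -1.38 (edgeR adjusted p = 0.0306), and without right plate 2 it was -0.64; in both the right side is 1 plate, whose spread is taken from the left plates.

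A few cells carried much of the level on these plates. On left plate 2, 1 cell held 51 of the 141 Gpr151 UMIs, or 36.2%, and without it that plate fell to 50.5 CPM. Leaving out the cell with most Gpr151 on each plate gave 71.1 CPM on left plate 1, 44.8 and 25.4 CPM on the right plates and 40.7 CPM on the plate of both sides, so the plates still did not overlap between the sides. Cluster 9, of 69 cells and led by Npr1, Sema3d and Amigo2, was the richest here, at 437.3 CPM and 98.6% positive cells. It held 11.7% of the cells and 68.5% of the Gpr151 counts of left plate 1, 9.0% and 54.5% on right plate 1, and 2.1% and 29.9% on the plate of both sides. It held 1.85% and 23.4% on left plate 2, and 2.26% and 21.4% on right plate 2. Cluster 10 held more of the counts than cluster 9 on left plate 2 (36.3%) and on the plate of both sides (36.5%).

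Cluster 9 gave 433.6 CPM from 33 cells on left plate 1, 360.8 CPM from 25 cells on right plate 1 and 669.7 CPM from 7 cells on the plate of both sides. Left plate 2 had only 1 cell of that cluster and right plate 2 had 3, so the side could not be compared within it. Cluster 10 (84.7 CPM, 15.8% positive cells), the neuron-like cluster 0 (82.6 CPM, 53.3%) and the medial habenula-like cluster 8 (78.2 CPM, 23.5%) followed, with overlapping intervals. Cluster 10 was led by Gad2, a GABA synthesis gene, and passed for 6 lateral habenula markers, none of them among its 10 leading genes, so it is given by number only, although it counts among the neuron-like cells. In cluster 10 left plate 2 had 3 cells, of which the cell with 51 UMIs was the only positive one. Thalamus-like cells gave 1 UMI in 68 cells.

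Which genes go with Gpr151 was asked within plates, so that stage and plate cancel. Neuron-like cells were thinned to 5000 UMIs and split into those with at least 1 and those with 0 Gpr151 UMIs among them, and the 2 classes were summed per plate. At P4 and P7 the plates gave 88, 84, 142 and 116 positive cells against 162, 185, 142 and 121 negative ones. Of 9628 genes, 373 (3.87%) were higher and 322 (3.34%) lower in positive cells (edgeR's quasi-likelihood test with plate as a block, adjusted p under 0.05). On the 5 plates of the E18 set, with 50, 7, 42, 10 and 19 positive cells on left 1, left 2, right 1, right 2 and both, 220 of 6694 genes (3.29%) were higher and 205 (3.06%) lower. Without the richest cluster the counts were smaller, over fewer genes tested. Without cluster 19 the P4 and P7 counts were 106 higher and 57 lower of 8676 genes. Without cluster 9 the E18 counts were 41 and 44 of 3421 genes. Among named genes, the calls lost without cluster 19 were those of Zfhx4, Trpc4, Rspo4, Sez6l, Unc13c, Lingo2, Adamts5, Nr4a2, Calb2, Slc5a7, Chat, Prox1, Grm5, Gnaz, Gnas, Pde4b, Rgs10, Chrna4, Cplx1, Bsn, Robo1, Gnao1, Rimbp2 and Sstr2. Without cluster 9 the E18 calls of Zfhx4, Oprm1, Trpc4, Kcnmb4, Gng8, Calb2, Kcnd3, Htr4, Pde1a, Scg2, Rimbp2, Sstr2, Chrm3, Pcdh9 and Prkcb were lost. A lost call did not always mean a much smaller fold change. On the log2 scale Zfhx4 went from 0.87 to 0.79, Trpc4 from 2.55 to 2.26 and Gng8 from 0.66 to 0.61. Calb2 went from 0.55 to 0.0012 and Scg2 from 1.29 to 0.31. Some named genes, Sema3d and Calb1 among them, could not be tested without cluster 9.

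Among receptor genes, Oprm1, which encodes the mu opioid receptor (chromosome 10, 6758506 to 7038198), separated the classes on every plate. At P4 its level was 287 CPM in positive and 28.6 CPM in negative cells of plate 1, and 375 and 11.4 CPM on plate 2. At P7 it was 306 and 80.2 CPM on plate 1 and 422 and 64.3 CPM on plate 2. Positive cells were far higher on all 4 plates, and the classes did not overlap. The log2 fold change of Oprm1 was 2.99 ± 0.16 (edgeR adjusted p = 8.09e-32). On the E18 plates Oprm1 stood at 319 against 91.5, 180 against 115, 422 against 74.7, 523 against 75.0 and 338 against 105 CPM, again higher in positive cells of every plate, with a log2 fold change of 2.06 ± 0.18 (edgeR adjusted p = 2.26e-14). Without the richest cluster the values were 1.85 at P4 and P7, still called, and 0.87 at E18, where the call was lost (edgeR adjusted p = 0.203). Oprm1 overlaps Ipcef1 on the other strand, and whether counting used strand is not given, so its counts are uncertain to that extent.

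Other G protein-coupled receptors of habenula neurons went with it in part. Of 14 listed receptors tested at P4 and P7, 6 were higher in positive cells (Oprm1, Htr4, Htr5b, Sstr2, Tacr1 and Cnr1) and 2 lower (Grm5 and Chrm3), with a median log2 fold change of 0.44 against 0.00 for all genes, of which 3.87% were called higher and 3.34% lower. Htr5b, a serotonin receptor, stood at 51.9 ± 13.9 CPM in positive and 7.27 ± 3.79 CPM in negative cells (SD, n = 4). Htr4, another serotonin receptor, had a log2 fold change of 1.97 ± 0.20, and the somatostatin receptor Sstr2 one of 1.31 ± 0.17. The metabotropic glutamate receptor Grm5 fell by 0.95 on the log2 scale and the muscarinic receptor Chrm3 by 0.97. At E18, 4 of 13 were higher (Oprm1, Sstr2, Htr4 and Htr5b) and Chrm3 was lower, beside 3.29% and 3.06% of all genes. Without cluster 9 the E18 calls of Oprm1, Sstr2 (0.75, edgeR adjusted p = 0.776), Htr4 and Chrm3 were lost, and that of Htr4 also without cells of high counts. The fold changes of Htr4 (1.70 with and 1.69 without cluster 9) and Chrm3 (-1.29 and -1.37) stayed about as large. Those of Oprm1 (2.06 and 0.87) and Sstr2 (1.71 and 0.75) shrank. Without cluster 19 the calls of Sstr2 and Grm5 were lost at P4 and P7.

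The galanin receptors, relatives of Gpr151, were near 0. Galr1, Galr2 and Galr3 were at 0 on all P4 and P7 plates. Their highest level anywhere was 1.60 CPM, for Galr1 on E18 plate 1 of the series, from 4 counts. They could not be tested, and neither could their ligands, except Spx, which did not pass at P4 and P7.

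Most G protein and cyclic AMP genes did not pass. Gnao1, which encodes the alpha subunit to which the receptor has been linked, was present in both classes: 1399 against 1285 and 1353 against 1274 CPM on the P4 plates, and 1520.4 against 1219.9 and 1512 against 1269 CPM on the P7 plates. It was slightly higher in positive cells on all 4, by 0.21 ± 0.06 on the log2 scale (edgeR adjusted p = 0.012), and on the 5 E18 plates by 0.53 ± 0.11 (edgeR adjusted p = 0.00034). At P4 and P7 the call of Gnao1 was lost in 9 of 16 alternatives, among them DESeq2 and those without either P7 plate, and at E18 in 1 of 17. Of 17 G protein subunits tested at P4 and P7, 5 were higher (Gng8, Gnaz, Gnb4, Gnas and Gnao1), Gng3 was lower and 11 did not pass, with a median log2 fold change of -0.032, while 3.87% of all genes were called higher and 3.34% lower. At E18, Gnao1 and Gng8 were higher and 15 of 17 did not pass (3.29% and 3.06% of all genes), and the call of Gng8 was lost without left plate 1 or right plate 1. Among cyclic AMP enzymes and kinase subunits, 17 of 20 did not pass at P4 and P7: the phosphodiesterase gene Pde1a was higher (0.60 ± 0.09), and Pde4b (-0.99 ± 0.20) and Prkar2a were lower. The call of Pde4b was lost in 4 of 16 alternatives, among them DESeq2, and its value was -0.060 without thinning. At E18, 3 of 18 were higher (Pde1a, Pde2a and Pde4d). The regulators of G protein signalling Rgs4 and Rgs10 were higher in both sets, by 1.59 ± 0.16 and 0.93 ± 0.16 at P4 and P7 and by 2.13 ± 0.44 and 1.59 ± 0.38 at E18, and the other 9 of 11 tested did not pass in either. The E18 call of Rgs10 was lost in 3 of 14 alternatives, among them that with spliced counts only.

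Genes of axon and cell-surface contact went both ways. Col25a1, a membrane collagen gene, stood at 860 against 185 and 823 against 149 CPM at P4 and at 1057 against 404 and 1044 against 386 CPM at P7, a log2 fold change of 1.83 ± 0.09 (edgeR adjusted p = 1.55e-34). The guidance ligand gene Slit2 stood at 1059 against 538 and 1093 against 476 CPM at P4 and 1252 against 401 and 1157 against 313 CPM at P7. Both were higher in positive cells on all 9 plates, and Slit2 had log2 fold changes of 1.42 ± 0.08 at P4 and P7 and 1.40 ± 0.14 at E18. Its receptor gene Robo1 was higher by 0.40 ± 0.05 and 0.88 ± 0.09, and the netrin receptor gene Dcc lower, by -0.80 ± 0.07 and -0.88 ± 0.12. Of 20 listed axon guidance genes at P4 and P7, 7 were higher and 7 lower, beside 3.87% and 3.34% of all genes, and of 18 at E18, 4 were higher and 5 lower, beside 3.29% and 3.06%.

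The largest fold change at P4 and P7 was that of Sema3d, a secreted semaphorin (chromosome 5, 12383385 to 12588948). It was at 52.7 against 1.3, 27.5 against 0, 44.5 against 2.97 and 50.5 against 0 CPM on the 4 plates, a log2 fold change of 5.12 ± 0.52 (edgeR adjusted p = 2.74e-15), and at E18 it had 3.17 ± 0.31. Calb1, which encodes the calcium-binding protein calbindin (chromosome 4, 15881264 to 15908064, with no overlapping gene), was at 172 against 18.2 and 225 against 11.4 CPM at P4 and 239 against 55 and 297 against 45.2 CPM at P7. Its log2 fold change was 2.91 ± 0.17, and at E18 2.22 ± 0.22. Further genes higher in positive cells of both sets encode the cation channel Trpc4 (2.46 ± 0.25 at P4 and P7, 2.55 ± 0.38 at E18), the potassium channel subunit Kcnmb4 (2.38 ± 0.18, 1.64 ± 0.24), the secreted Wnt enhancer Rspo4 (2.33 ± 0.27, 2.43 ± 0.78), the protein kinase C isoform Prkch (2.19 ± 0.21, 1.69 ± 0.40), Rprm (2.11 ± 0.32, 2.21 ± 0.25) and the adhesion protein Amigo2 (1.79 ± 0.13, 2.72 ± 0.24). At E18 Rspo4 could be tested in 6 alternatives, and its call was lost in 2 of them, with DESeq2 and without thinning. Rxfp2, a relaxin-family receptor gene, was higher at P4 and P7 (3.14 ± 0.29) and had too few counts to be tested at E18. Sema3d, Kcnmb4, Rspo4, Col25a1, Slit2, Amigo2 and Rxfp2 overlap other annotated genes, so their counts are uncertain to that extent. The same holds for Gnao1, Gnaz, Gnb4, Gnas, Rgs10, Pde2a, Pde4d, Prkar2a, Htr5b, Sstr2, Grm5, Chrm3, Robo1, Bsn, Sv2c, Slc17a7, Rimbp2, Nefl, Nefm, Rbfox3, Nwd2, Gap43, Pcdh10, Id4, Prox1, Lmo3, Zfhx4 and Chat, which overlaps Slc18a3 on the same strand. Among the genes lower in positive cells it holds for Gad1, Tcf4, Prkcb, Ptprd, Nrxn3, Ebf3, Cdh20, Sez6l, Unc13c and Unc5c, and it holds for Pcdh9.

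Pou4f1, the transcription factor whose older name the mouse line carries, did not separate the classes. It stood at 505 against 502, 573 against 494, 431 against 470 and 485 against 474 CPM at P4 and P7 (log2 fold change 0.05 ± 0.08, edgeR adjusted p = 0.889), and at E18 its log2 fold change was 0.21 ± 0.12 (edgeR adjusted p = 0.44). Of 8 habenula neuron markers tested at P4 and P7, 4 were higher in positive cells (Etv1, Gng8, Nwd2 and Nr4a2) and none was lower, with a median of 0.25 and beside 3.87% and 3.34% of all genes, and the same 4 were the ones higher among 7 at E18, with a median of 0.47 against -0.012 for all genes, of which 3.29% were called higher and 3.06% lower. Etv1, an ETS transcription factor gene, was at 1617 ± 293 CPM in positive and 1031 ± 329 CPM in negative cells of P4 and P7 plates (SD, n = 4).

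Among 20 habenula transcription factors at P4 and P7, Lhx9, Etv1, Id4, Nr4a2 and Nhlh2 were higher and Lmo3, Prox1, Nhlh1 and Lmo4 lower, beside 3.87% and 3.34% of all genes. The LIM factor Lhx9 rose with Gpr151 by 0.77 ± 0.07 and at E18 by 0.88 ± 0.11, while the LIM-only factor Lmo3 had -1.09 ± 0.09 and -1.51 ± 0.19. Zfhx4, a homeobox gene outside that list, was at 68.6 ± 16 against 7.66 ± 3.55 CPM at P4 and P7 (SD, n = 4), a log2 fold change of 3.14 ± 0.29. At E18, 18 of these factors were tested, 4 higher (Etv1, Nr4a2, Lhx9 and Id4) and 4 lower (Prox1, Lmo3, Lmo4 and Irx3), beside 3.29% and 3.06% of all genes. The call of Id4 at E18 was lost without left plate 1 or right plate 1, and that of Nr4a2 at P4 and P7 without P7 plate 1.

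Most cholinergic genes did not pass. Of 11 genes of acetylcholine synthesis and nicotinic receptors tested at P4 and P7, the choline transporter gene Slc5a7 (-0.62 ± 0.11) and Chat (-0.63 ± 0.19) were lower, the nicotinic receptor gene Chrna4 was higher (1.43 ± 0.23) and 8 did not pass, where 3.87% of all genes were called higher and 3.34% lower. At E18 Slc5a7 was lower by -1.84 ± 0.42 and Chrna4 higher by 1.53 ± 0.38, of 5 tested, beside 3.06% and 3.29% of all genes. The call of Chat was lost in 9 of 16 alternatives, among them those without P4 plate 1 and without P7 plate 2. That of Slc5a7 was lost in 3 of 16 at P4 and P7 and in 6 of 13 at E18, among them without left plate 1, and that of Chrna4 at E18 without left plate 1 or right plate 1. Without cluster 19 Chrna4 was at 0.36 at P4 and P7 (edgeR adjusted p = 0.869). Of 10 medial habenula markers at P4 and P7, Calb2, Nhlh2 and Tac2 were higher and Slc5a7 and Chat lower, and the call of Tac2 was lost in 8 of 16 alternatives, among them those without either P4 plate or P7 plate 2, and that of Calb2 in 4 of 16. Of 8 lateral habenula markers, Htr5b and Gap43 were higher and Vgf and Pcdh10 lower. The list medians were -0.12 for the medial and 0.54 for the lateral markers, beside 0.00 for all genes, of which 3.87% were called higher and 3.34% lower. At E18, Calb2 was higher and Slc5a7 lower among 6 medial markers tested, with a median of -0.037. Among 4 lateral markers tested there, Sst and Htr5b were higher and 0 lower, with a median of 1.05. The median of all E18 genes was -0.012, with 3.29% called higher and 3.06% lower. The E18 call of Calb2 was lost in 14 of 17 alternatives and that of Sst in 3 of 17.

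Of 21 presynaptic genes at P4 and P7, the active zone gene Bsn was higher (0.77 ± 0.13), and Cplx1, Sv2c, Slc17a7, Rims1 and Syn1 were lower, against 3.87% and 3.34% of all genes; at E18 Bsn was higher (1.16 ± 0.20) and Sv2c lower, of 19, against 3.29% and 3.06%. The active zone scaffold gene Rimbp2 was higher in both sets, by 0.99 ± 0.13 and by 2.46 ± 0.21, and without the richest cluster both calls were lost (0.36, edgeR adjusted p = 0.399, and 1.29, 0.128). Of 9 neuropeptide genes at P4 and P7, Scg2 (0.95 ± 0.14) and Tac2 (0.27 ± 0.09) were higher and Vgf lower. At E18 Scg2 (1.29 ± 0.23) and Sst were higher, of 5, beside 3.29% of all genes. Sst, which encodes somatostatin, was at 456 against 141 CPM on left plate 1 and 576 against 121 CPM on right plate 1, at 180.0 against 9.59 CPM on left plate 2, but at 0 in the positive cells of right plate 2 and of the plate of both sides. The E18 call of Sst was lost with DESeq2, with no replicate block and without thinning.

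Genes lower in positive cells were led at P4 and P7 by Gad1, which encodes a GABA-synthesizing enzyme. It was at 12.0 against 40.3, 0 against 0, 5.94 against 149 and 25.2 against 191 CPM, a log2 fold change of -3.21 ± 0.28 (edgeR adjusted p = 8.19e-18) with 3 of 4 plates lower. At E18 all 5 plates were lower for Gad1, with -3.26 ± 0.64 (edgeR adjusted p = 8.41e-05). P4 plate 2 had no Gad1 count in either class.

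Tcf4, a basic helix-loop-helix factor gene, was lower in positive cells on each of the 9 plates. It stood at 347 against 910 and 410.2 against 969 CPM at P4 and at 264 against 689 and 227 against 653 CPM at P7 (log2 fold change -1.36 ± 0.08, edgeR adjusted p = 9.38e-29). At E18 Tcf4 was at 178 against 752, 240 against 777, 248 against 741, 272 against 691 and 175 against 585 CPM, a log2 fold change of -1.73 ± 0.16. Other genes lower in both sets were those of the kinase Prkcb (-1.06 ± 0.08, -1.06 ± 0.15), the receptor phosphatase Ptprd (-0.80 ± 0.06, -0.47 ± 0.10), the synaptic adhesion protein Nrxn3 (-1.67 ± 0.13, -1.41 ± 0.16) and the transcription factors Ebf3 (-1.63 ± 0.15, -2.11 ± 0.24) and Neurod6 (-1.80 ± 0.31, -2.74 ± 0.54). Cdh20 (-2.06 ± 0.29), Sez6l (-1.85 ± 0.36), Unc13c (-1.71 ± 0.20) and Adamts5 (-1.62 ± 0.34) were among the largest falls at P4 and P7, and Sema3c (-3.75 ± 0.74) and Unc5c (-3.76 ± 0.49) among those at E18.

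**Figure D4:**
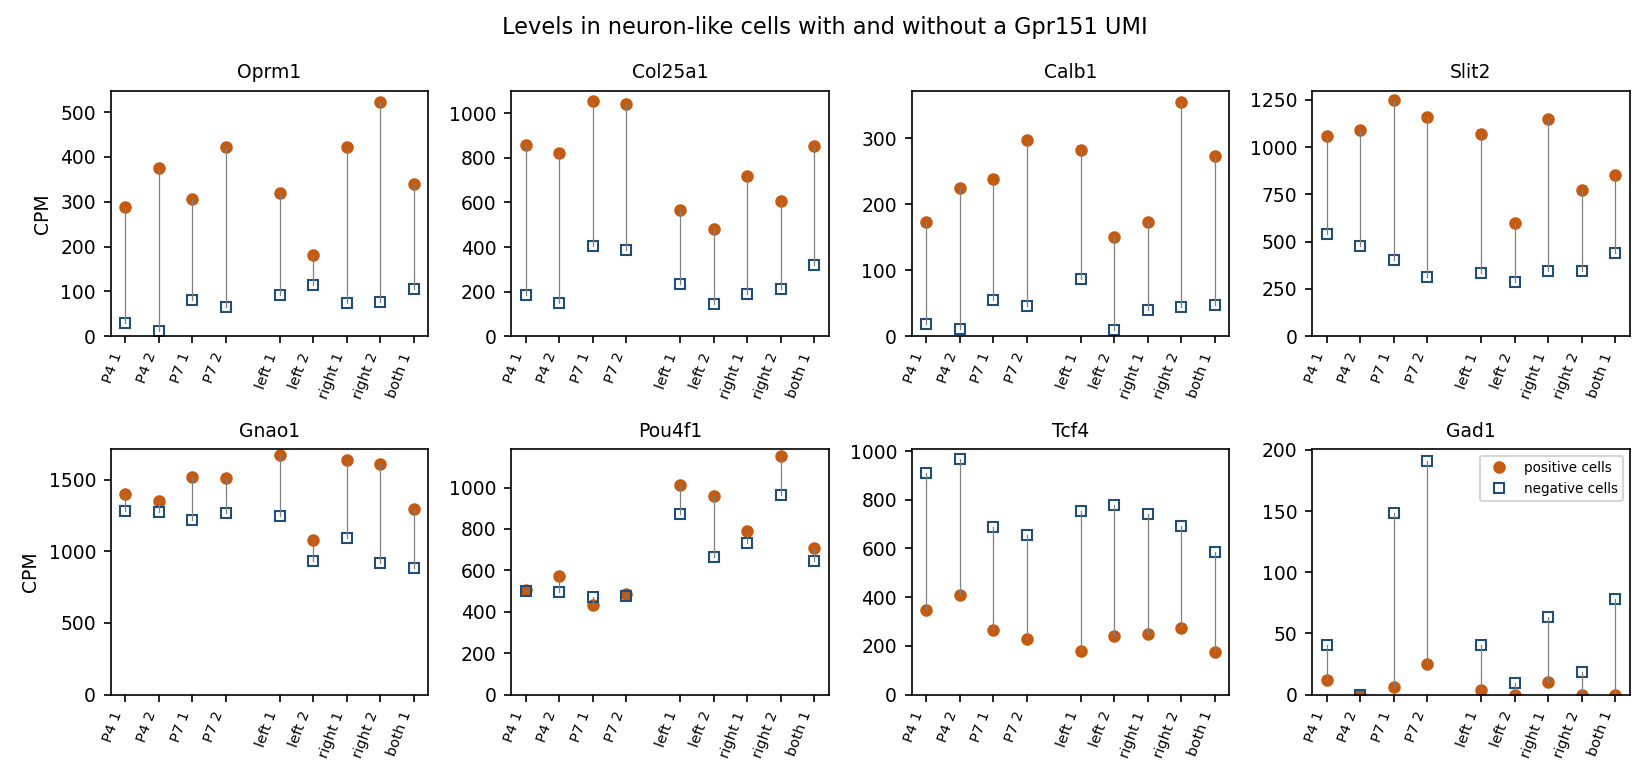
Levels (CPM) of 8 genes in neuron-like cells with (filled circles) and without (open squares) a Gpr151 UMI at 5000 UMIs per cell, plate by plate; lines join the classes of a plate. Oprm1, Col25a1, Calb1 and Slit2 are higher and Tcf4 is lower in positive cells of all 9 plates, Gnao1 is slightly higher, and the Pou4f1 classes lie close together, at 505 and 502 CPM on P4 plate 1.

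Of 10 pan-neuronal markers, 0 were higher in positive cells of either set, beside 3.87% of all genes at P4 and P7 and 3.29% at E18. At P4 and P7, 5 were lower (Nefl, Nefm, Rbfox3, Stmn2 and Tubb3), with 3.34% of all genes called lower, a list median of -0.21 and summed levels of 6076 to 6755 CPM in positive and 7294 to 7456 CPM in negative cells, which did not overlap. At E18 Rbfox3 and Nefm were lower, with 3.06% of all genes called lower, and the sums overlapped, at 6273 to 7070 and 7031 to 7378 CPM.

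Markers of other cell types overlapped between the classes at P4 and P7 and differed more at E18. At P4 and P7 the summed oligodendrocyte markers ran from 37.5 to 50.3 CPM in positive and from 33.0 to 60.9 CPM in negative cells, with Mobp at 0, the astrocyte markers from 12.5 to 39.7 and from 15.9 to 59.1 CPM, and the microglia markers from 27.5 to 52.7 and from 13.0 to 33.0 CPM. At E18 the astrocyte markers ran from 20.9 to 89.3 CPM in positive and from 96.9 to 166.6 CPM in negative cells, with Agt at 0. All 4 erythroid markers tested at E18 were lower in positive cells, where 3.06% of all genes were, at summed levels of 10.9 to 1389 against 32.7 to 7949 CPM, and the highest negative level came with 2555 CPM of Hba-a1 on right plate 1. The log2 fold change of Hba-a1, -1.77, turned to 0.17 without right plate 1, and it also turned with spliced counts (0.37), at 3000 UMIs per cell (0.52) and without cells of high counts (0.40). The part of these markers in the results was not tested. Of the genes induced by dissociation, 0 of 10 passed at P4 and P7, where 3.87% of all genes were called higher and 3.34% lower, and 0 of 2 at E18 (3.29% and 3.06%), with medians of 0.094 and 0.25.

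The 2 sets shared many calls. Of the 6552 genes tested in both, 153 were higher in positive cells of both, which is 47.4% of the 323 higher at P4 and P7 and 69.9% of the 219 higher at E18. Lower in both were 101 genes, 38.1% of 265 and 54.6% of 185. Brinp3, named after its values were seen, was the 1 gene called in opposite directions, at -0.69 ± 0.22 at P4 and P7 and 1.06 ± 0.23 at E18. The difference of the fold changes itself passed for 93 of 10739 genes (0.866%; edgeR interaction term).

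**Figure D5:**
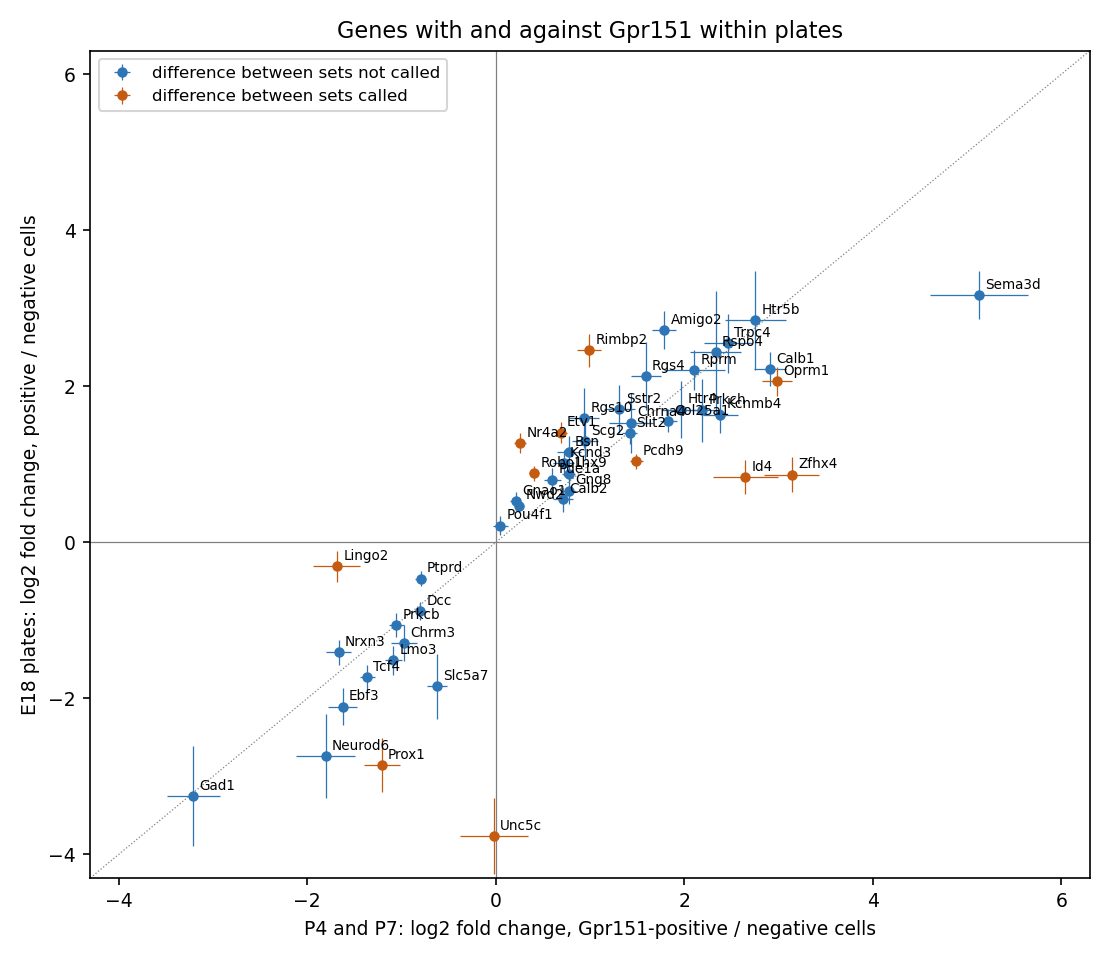
Log2 fold changes (± SE) between Gpr151-positive and negative neuron-like cells for named genes tested in both sets, at P4 and P7 (x axis) and on the E18 left, right and both plates (y axis); the dotted line marks equal values. Sema3d lies farthest to the right, at 5.12 and 3.17, and orange points, such as Nr4a2 at 0.26 and 1.27, are genes whose difference between the sets was called.

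Single plates outside these tests gave the same directions more often than not. On adult plate 2, split in the same way into 144 positive and 29 negative cells, 322 of 365 genes called higher at P4 and P7 were higher in positive cells (88.2%, against 51.7% of 8996 genes), and 33 of 284 called lower were (11.6%). On E15 plate 2, with 37 positive and 159 negative cells, 210 of 317 such genes were higher (66.2%, against 48.5% of 8785) and 80 of 266 of the lower ones (30.1%). Each is 1 plate, so no test was made.

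Cell by cell, the link was moderate. The mean Spearman correlation with Gpr151 over neuron-like cells within the 4 P4 and P7 plates, at 5000 UMIs per cell, was highest for Col25a1 (0.54), Oprm1 (0.49) and Pcdh9 (0.45) and lowest for Tcf4 (-0.48), Ptprd (-0.46) and Prkcb (-0.46). Of 6600 genes, 37 had a mean above 0.3 and 15 below -0.3, around a median of -0.00305. Across the 15 series plates, the genes whose log2(CPM + 1) most resembled that of Gpr151 were AF529169 (Pearson r = 0.956), Cnnm2, Nrgn, Gm45837 and Pde2a. These plates share stage and cell mixture, 8463 genes were compared, and Gm45837 and Pde2a overlap each other and have nearly the same counts.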

How the data were processed

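The authors deposited, for each set of plates, tables of total, spliced and unspliced transcripts per gene and well, without scaling. Their deposited values are expected counts: UMI counts corrected for UMI collisions, which was found from the values, since inverting the correction for 4096 UMIs gave whole numbers. The submitters' processing notes name STAR 2.5.3a, Trim Galore and mm10; the counting program, annotation and use of strand are not stated in the labels or notes. Of the row IDs, 37938 of 37994 and 36050 of 36104 were in GENCODE M21.

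The planned test assumed whole counts; since the tables hold expected counts, these were summed per plate and then rounded. Spike-ins were left out. Plates, the samples, were grouped as labelled. For the plate of both sides 1 label reads E1 and the rest E18, which was used. Tests used edgeR 4.0.16 (filterByExpr, TMM, glmQLFit, glmQLFTest; R 4.3.3, limma 3.58.1) with Benjamini-Hochberg adjustment at 0.05 over all genes tested; stage contrasts shared 1 fit of 14 plates. DESeq2 1.42.0 was an alternative. The code was tested on simulated data with an assumed spread. Of 2-fold and 4-fold changes, 19% and 78% were recovered for E18 to P4, and 12% and 83% for right minus left. With a smaller assumed spread, the splits by Gpr151 recovered 77% and 94% at P4 and P7 and 63% and 88% at E18. Clusters used scanpy 1.11.5 and leidenalg 0.10.2 (2000 variable genes, 30 components, 15 neighbours, resolution 1). A cluster took a name when 3 or more markers of a type exceeded other cells by 2-fold or more and occurred in 20% or more of its cells; "neuron-like" joins neuron and habenula clusters. Doublets were not called, but an alternative left out cells of over 3 times the median count of their plate. The plates of a set share the same well barcodes by design. Intervals are exact, at 95%; they and the floor of 3 counts reflect counting error alone. Median counts per cell ran from 5058 (adult plate 1) to 29096 (left plate 2).

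The members and the gene lists were chosen with earlier results of these data known. Named genes were those with the largest changes past the threshold, at least 20 CPM on average and the same sign on every plate (12 higher and 8 lower at P4 and P7, 6 and 4 at E18), up to 4 called members of each list, Gnao1, Pou4f1 and the galanin receptors, the 5 genes most alike across plates and the 3 highest and 3 lowest within-plate correlations; others given in lists are all called members. Scripts ran under Python 3.11.15. A result that would name an item withheld for evaluation is not reported here.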

Additional observations from a re-analysis of the deposited data

Results flagged for a closer look

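For 12 genes named in connection with Gpr151, the log2 fold change between positive and negative cells differed between the E18 plates and the P4 and P7 plates by edgeR's interaction term. Over all genes this term passed for 93 of 10739 (0.866%). Many named genes were chosen for a large fold change in 1 of the sets, which favours a difference between the sets, so the 12 are no measure of how common such differences are. Stage, mouse line and table differ together between the sets and cannot be told apart. Larger at P4 and P7 were the fold changes of Zfhx4 (difference E18 minus P4 and P7 of -2.27, adjusted p = 2.78e-06), Id4 (-1.81, 0.00112), Oprm1 (-0.94, 0.00926) and Pcdh9 (-0.50, 0.0116), each higher in positive cells of both sets, although the E18 call was lost in 7 of 17 alternatives for Zfhx4, in 6 of 16 for Id4 and without cluster 9 for Zfhx4, Oprm1 and Pcdh9. Larger at E18 were those of Rimbp2 (1.46, edgeR adjusted p = 4.46e-06), Sst (1.12, 0.0122), Nr4a2 (0.998, 4.39e-08), Etv1 (0.67, 0.000718) and Robo1 (0.44, 0.0348). Sst did not pass at P4 and P7. Among the lower genes, Prox1 fell further at E18 (-1.66, edgeR adjusted p = 0.0215), Unc5c was lower at E18 and did not pass at P4 and P7 (-3.77, 1.04e-05), and Lingo2 was lower at P4 and P7, where its call was lost without cluster 19 (-0.36, 0.769), and did not pass at E18 (1.35, 0.00248).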

How the results depend on the processing

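Depth limits the early stages and the low plates: below about 1 CPM the level is that of single UMIs, and the adult level rests on plates of unequal depth. Stage differences kept direction and side of the threshold in 109 of 120 alternatives. Without a filter on low counts, E11 to E13 (5.26), E13 to E15 (2.18) and E15 to E18 (-3.36) passed; fitted on the 4 plates of a contrast alone, P4 to P7 passed (1.05) and E18 to adult did not (7.59). Leaving out 1 plate at a time gave 4.45 to 7.32 for E11 to E13, -7.34 to 3.13 for E13 to E15, -6.03 to 6.14 for E15 to E18, 4.72 to 8.77 for E18 to P4, 0.93 to 1.15 for P4 to P7, -0.32 to 1.21 for P7 to adult, 10.4 to 13.3 for E11 to P7, 6.39 to 10.4 for E18 to adult and -1.38 to -0.64 for right minus left. Where that left E11 or E15 with 0 counts (the values -7.34, 6.14, 7.32 and 13.3), the fit gave no usable error and the size is no estimate.

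The labels do not say whether equal replicate numbers pair plates, and the correlations could not settle it. Over 21 pairs of stages same-numbered plates correlated at -0.363 to 0.25, with 4 pairs above 0.1. Left with right, the only pair of that set, correlated at 0.233. With a replicate block, E18 to P4 was 6.21 (edgeR adjusted p = 0.0114) and right minus left -0.97 (0.269); no call for Gpr151 changed.

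Counts of genes with Gpr151 at P4 and P7 (373 higher, 322 lower) were 146 and 85 with DESeq2 and 191 and 127 with no replicate block (plate left out of the model); 647 were lower over all kept cells, and without the richest cluster, chosen after seeing the data, 106 and 57 were called. Leaving out plates gave 284 to 330 higher and 219 to 283 lower. At E18 (220 higher, 205 lower) they were 125 and 73 with DESeq2, 111 and 79 with no replicate block, 365 and 369 without thinning, 107 and 90 at 3000 UMIs, 372 and 450 over all kept cells and 41 and 44 without the richest cluster; 124 were lower from spliced counts and 136 where positive meant 2 UMIs. Leaving out plates gave 138 to 234 and 97 to 228.

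Levels that moved beyond the plates' SD were E13 in neuron-like cells (10.3 CPM) and in Pou4f1-positive cells (8.11), and left in neuron-like cells (98.8), in Pou4f1-positive cells (88.7) and as a mean over cells (88.1). The plate of both sides is 1 plate and has no SD. Its level of 46.3 CPM became 84.1 in neuron-like cells, 82.8 in Pou4f1-positive cells and 38.4 as a mean over cells. Without the top cell of each plate, an alternative added after seeing the data, E12 was 0, E13 2.01, left 60.8 and both 40.7. Shares at 5000 UMIs were 0.0791% at E11, 1.53% at E18, 31.2% and 46.6% at P4 and P7, 51.9% in the adult, 17.8% left, 11.3% right and 7.07% on both sides. At 2000 UMIs, shares in neuron-like cells were 1.95% at E13 (1 plate), 61.3% in the adult, 16.8% left and 8.33% on both. In Pou4f1-positive cells, also at 2000 UMIs, they were 58.7% in the adult, 14.7% left and 8.36% on both. At clustering resolution 0.5, neuron-like levels were 85.6 CPM left and 71.4 CPM on both. There 1 cluster of 148 cells, with lateral habenula and thalamus markers, was not counted as neuron-like. The left and right levels in neuron-like cells therefore depend on the clustering.

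Of the named genes that were called, 29 of 58 at P4 and P7 and 23 of 52 at E18 kept their call in every alternative in which they were tested, and single alternatives ended a call 149 times with the direction kept. Calls lost most often, reversals included, were those of Chat and Gnao1 (9 of 16 each), Tac2 (8) and Nr4a2 (6) at P4 and P7, and of Calb2 (14 of 17), Zfhx4 (7), Id4, Gng8, Hba-a1 and Slc5a7 (6 each) at E18. Without the richest cluster, 24 of the calls at P4 and P7 were lost, those of Zfhx4, Trpc4 and Rspo4 among them, and 15 at E18. The rest were not all kept, since some could not be tested there. At E18 these included Sema3d, Calb1, Htr5b, Id4, Rprm, Amigo2, Rgs4 and Gad1, and at P4 and P7 Sema3d.

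Of single genes at P4 and P7, Id4 reversed over all kept cells (-0.66), Pou4f1 at 2 UMIs (-0.00191), at 3000 UMIs (-0.094), in Pou4f1-positive cells (-0.025) and without P4 plate 2 (leaving out plates gave -0.014 to 0.094), and Unc5c with DESeq2 (0.12), with no replicate block (0.034), at 2 UMIs (0.13) and without P4 plate 1 or P7 plate 2 (leaving out plates gave -0.41 to 0.26). At E18, Lingo2 reversed at 2 UMIs (0.017), at 3000 UMIs (0.22), in Pou4f1-positive cells (0.13) and without right plate 1 (leaving out plates gave -0.54 to 0.081), Calb2 (-0.61) and Pou4f1 (-0.072) at 3000 UMIs, and Hba-a1 from spliced counts (0.37), at 3000 UMIs (0.52), without high-count cells (0.40) and without right plate 1 (leaving out plates gave -4.22 to 0.17). The cause was not tested.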
